A study of Mus musculus with 12 samples.

Results

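Mouse mammary tumors treated with an antibody against PD-1 were compared with tumors treated with an IgG1 control antibody, both without chemotherapy. The 6 tumors, 3 in each group, were chosen by the treatment named in the sample labels, from 12 tumors in the series. All came from female MMTV-PyMT mice on a C57BL/6 background, in which the MMTV promoter drives the polyoma middle T oncogene in the mammary epithelium and tumors arise in every gland. Pieces of whole snap-frozen tumor were sequenced as total RNA with a stranded kit, so each value averages over cancer cells, stroma, vessels and leukocytes. Fewer cells of a type and less RNA per cell cannot be told apart in such values.

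The anti-PD-1 group received clone 4H2 and the IgG1 group the isotype antibody, both by intraperitoneal injection, from the time a tumor reached 0.6 cm in diameter. The first dose was 20 mg/kg, and doses of 10 mg/kg followed at intervals of 6 days, the last on day 18. The labels instead describe weekly treatment over 5 weeks for every group. Treatment was timed by tumor size, and the age of each mouse is not given. The other 6 tumors, 3 given DOX/IgG1 and 3 given DOX/anti-PD-1, also received doxorubicin at 5 mg/kg, with 10 mg/kg of antibody, and started at 1 cm. They are used to ask whether the difference between the antibodies was the same with doxorubicin, and in an alternative fit of all 12 tumors.

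PD-1, the product of Pdcd1, is an inhibitory receptor on activated T cells. When it binds its ligands PD-L1 (Cd274) or PD-L2 (Pdcd1lg2) on tumor cells or myeloid cells, the phosphatase SHP-2 (Ptpn11) is recruited and signals from the T cell receptor are dampened. Antibodies that block PD-1 can release T cells from this brake, which is often followed by interferon-gamma, cytotoxic granule proteins and chemokines in tumors that T cells had already entered.

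Values are TPM, a unit of transcripts that counts reads per length of transcript and scales each tumor to a common total. The sequencing depth is therefore unknown, and the counting error of a value cannot be computed. The authors listed 21960 genes per tumor, which sum to 609418, 689937 and 708191 TPM in IgG1 tumors 1, 2 and 3 and to 652376, 654518 and 678203 TPM in tumors 1, 2 and 3 of the anti-PD-1 group. Values for single tumors are given in this order throughout. The replicate numbers do not pair tumors. Tested genes were those with 1 TPM or more in 3 or more of the 6 tumors, which left 13692 genes, 957 of them at 0 in 1 tumor or more, and put 8268 below the limit, of which 4929 were at 0 in all 6.

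Markers of luminal mammary epithelium, the tissue the label names, were high in all 6 tumors. Epcam, a surface protein of epithelial cells, had 938, 846 and 954 TPM after IgG1 and 911, 712 and 757 TPM after anti-PD-1. The luminal keratin Krt8 had 606, 278 and 377 TPM after IgG1 and 369, 335 and 330.4 TPM after anti-PD-1. Leukocytes were present in all 6 tumors, with the pan-leukocyte gene Ptprc at 88.0, 100.4 and 155 TPM after IgG1 and 80.9, 106 and 58.8 TPM after anti-PD-1. The T cell coreceptor Cd8a had 0.88, 1.04 and 1.73 TPM after IgG1 and 0, 0.83 and 1.16 TPM after anti-PD-1.

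The correlation between tumors over the tested genes, on the log2 scale, was lowest on average for IgG1 replicate 1 (mean r 0.906 with the other tumors) and anti-PD-1 replicate 1 (0.909), against 0.921 to 0.929 for the rest. These are correlations across genes, which are not independent replicates. These 2 tumors, 1 in each group, stood apart, and counts are also given without both.

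No gene passed the test for a difference between anti-PD-1 and IgG1. A log2 fold change here is the difference of mean log2(TPM + 1), anti-PD-1 minus IgG1, and limma, which fits all genes together and moderates the spread between tumors, called 0 of 13692 genes (0%) at an adjusted p below 0.1 with an absolute log2 fold change above 1. The smallest adjusted p was 0.159. At an unadjusted p below 0.05, limma counted 240 genes higher after anti-PD-1 (1.75%) and 390 lower (2.85%). All 3 anti-PD-1 tumors were above all 3 IgG1 tumors for 499 genes (3.64%) and below them for 854 (6.24%). Of all tested genes, 47.2% were higher after anti-PD-1 by their log2 fold change. These percentages are the background for the counts in gene lists that follow. The lists were chosen with earlier results of these data known, so a count above this background is a description and not a test. For 1 gene, the exact two-sided permutation test of 3 tumors against 3 cannot go below p = 0.1, and all p-values measure the spread between tumors.

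The balance of the directions depended on how tumors were scaled. Genes higher after anti-PD-1 made up 38.1% of those at an unadjusted p below 0.05 with TPM as deposited, and 49.2% after scaling by the median of ratios. The median log2 fold change over all tested genes was -0.03 as deposited and 0.01 after that scaling. Genes without overlap, 499 higher and 854 lower as deposited, numbered 763 higher and 738 lower after it. The number of called genes also depended on single tumors: it was 4 without IgG1 replicate 1 (the histone genes Hist1h4m, Hist1h2an, Hist1h2bl and Hist1h3d), 2 without IgG1 replicate 2 (Timm8a1 and Hbb-bt) and 1 without anti-PD-1 replicate 2 (the pseudogene Rpl10-ps3). Each of these genes was at 0 in all remaining tumors of 1 group. Except for Hbb-bt, the tumor left out was the only one of that group above 0, so leaving it out fixed the difference. These calls give no support for one. Without IgG1 replicate 1 the genes lower at an unadjusted p below 0.05 numbered 676, and without anti-PD-1 replicate 3 those higher numbered 150. Without both tumors that stood apart, 5 genes were called (Dmbt1, Hist1h2an, Hist1h3g, Hist1h3d and Gm12184), with 453 higher and 1128 lower at an unadjusted p below 0.05. All but Dmbt1 were at 0 in both remaining tumors of 1 group, whose left-out tumor was above 0. For Dmbt1 the left-out tumors had 16.2 TPM after IgG1 and 154 TPM after anti-PD-1, opposite to the remaining ones. These calls give no support for a difference.

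Pdcd1 and Pdcd1lg2 were below the limit of 1 TPM in each of the 6 tumors without doxorubicin, and Cd274 was above it in all 6. Pdcd1 (ENSMUSG00000026285, chr1:94038305-94052553, reverse strand of GRCm38) had 0, 0.52 and 0 TPM after IgG1 and 0, 0.65 and 0 TPM after anti-PD-1, too low for the test. Cd274 (ENSMUSG00000016496, chr19:29367455-29388095, forward strand) had 2.88, 3.01 and 1.70 TPM after IgG1 and 3.98, 1.87 and 2.75 TPM after anti-PD-1. The log2 fold change of Cd274 was 0.12 (SE 0.42, limma adjusted p = 0.996), and the groups overlapped. Its sign turned when 1 tumor was left out: it was -0.07 without IgG1 replicate 3 and -0.08 without anti-PD-1 replicate 1, and it was -0.004 without both tumors that stood apart. Pdcd1lg2 was listed at 0 in all 6 tumors.

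Of the 21 listed genes of the PD-1 axis and other checkpoints, 13 were tested, and the 8 below the limit were Pdcd1lg2 and the receptors Pdcd1, Ctla4, Icos, Cd28, Tigit, Cd96 and Btla. The 13 had a median log2 fold change of -0.08, beside -0.03 for all genes, with 5 higher, 8 lower and 0 at an unadjusted p below 0.05. Without anti-PD-1 replicate 3 the median was 0.008, and without anti-PD-1 replicate 2 it was -0.21. Summed over the list, IgG1 tumors had 294.5, 232 and 230.2 TPM and anti-PD-1 tumors 247, 219 and 208 TPM, of which the phosphatase SHP-1 (Ptpn6) held 25.5%. Lag3, an inhibitory receptor of T cells and NK cells, had 1.33, 0.50 and 1.04 TPM after IgG1 and 0.81, 3.42 and 3.08 TPM after anti-PD-1. Its log2 fold change was 0.73 (SE 0.50, limma adjusted p = 0.996), with 2 of the 3 anti-PD-1 tumors above every IgG1 tumor. Vsir, which encodes the checkpoint protein VISTA, had 30.2, 30.2 and 28.4 TPM after IgG1 and 22.8, 17.9 and 21 TPM after anti-PD-1. Vsir was lower in all 3 anti-PD-1 tumors, with a log2 fold change of -0.51 (SE 0.25, limma adjusted p = 0.996). Pvr, a ligand of TIGIT, was the tested gene of the list that was higher in all 3, at 36.6, 36.7 and 28.4 TPM after anti-PD-1 beside 25, 25 and 28.3 TPM after IgG1.

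**Figure D1:**
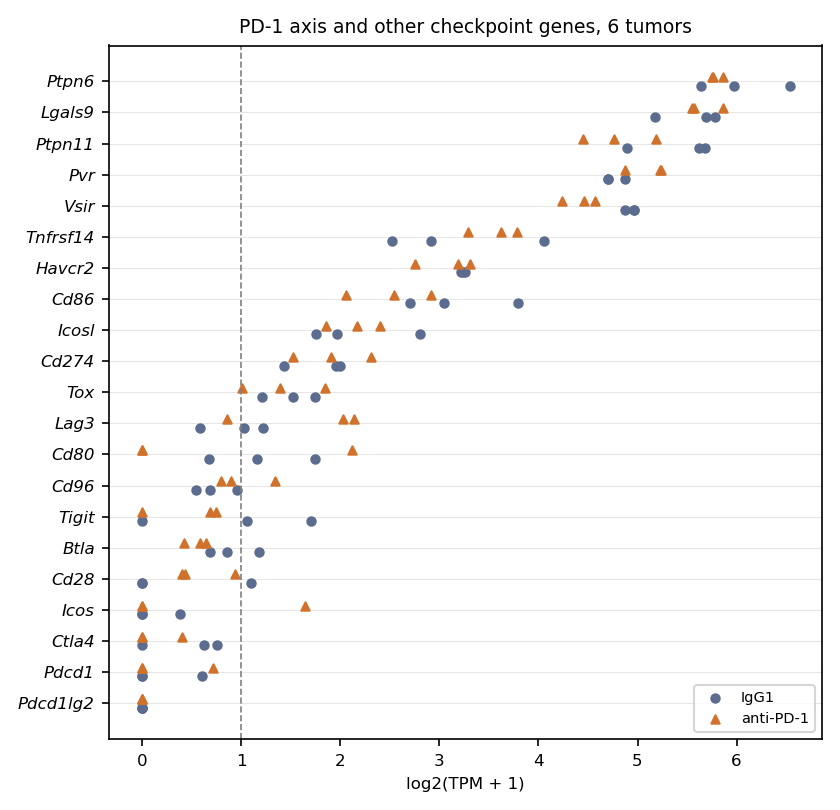
Each gene of the PD-1 axis list in each of the 6 tumors, as log2(TPM + 1), ordered by mean TPM, with circles for IgG1, triangles for anti-PD-1 and a dashed line at 1 TPM. The receptor Pdcd1 is at 0 in 4 tumors and under the line in the other 2, and for most genes the groups overlap.

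Of 26 T cell genes listed, 23 were in the files and 17 were tested, with a median log2 fold change of -0.20, 6 higher and 11 lower. The median was -0.01 without IgG1 replicate 2, -0.04 without anti-PD-1 replicate 3 and -0.39 without IgG1 replicate 1. At an unadjusted p below 0.05, 2 were higher and 0 lower. Both encode chains of the T cell receptor complex. Cd3g had 1.56, 0 and 0 TPM after IgG1 and 1.65, 2.70 and 4.00 TPM after anti-PD-1, and Cd247 had 4.55, 0 and 1.43 TPM after IgG1 and 9.37, 3.05 and 8.15 TPM after anti-PD-1. The log2 fold change was 1.42 for Cd3g (SE 0.54, limma adjusted p = 0.996), whose groups did not overlap, and 1.61 for Cd247 (SE 0.64, limma adjusted p = 0.996), whose groups did. For Cd3g it was 3.41 at a pseudocount of 0.1 and 0.50 at 5. A chain of the same complex, Cd3e, had 14.6, 5.56 and 2.27 TPM after IgG1 and 0, 7.84 and 1.58 TPM after anti-PD-1, with a log2 fold change of -1.29 (SE 0.79, limma adjusted p = 0.996). Summed TPM of the list was 85.4, 95.4 and 78.8 after IgG1 and 87.7, 61.9 and 103 after anti-PD-1, and its most abundant gene was Cd27 with 34.9%.

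Of 18 NK and cytotoxic genes, 9 were tested, with a median of 0.45, 6 higher and 3 lower, and 0 at an unadjusted p below 0.05 in either direction. The median of 0.45 was 0.18, 0.17 and 0.17 without IgG1 replicates 1, 2 and 3, 0.69 and 0.25 without anti-PD-1 replicates 1 and 3, and 0.01 with no filter. At a pseudocount of 0.1 this median was 0.94, and at 5 it was 0.14. The cytotoxic protease Gzmb had 5.71, 4.34 and 2.24 TPM after IgG1 and 4.67, 4.94 and 2.42 TPM after anti-PD-1, with overlapping groups. Among the tumors without doxorubicin, Ifng, which encodes interferon-gamma, was listed above 0 only in anti-PD-1 replicate 2, at 0.53 TPM. Of 20 B cell and plasma cell genes listed, 12 were in the files and 2 were tested, Cd22 and Jchain, with a median of 0.02 that turned to -0.02 at a pseudocount of 0.1, -0.125 without IgG1 replicate 2 and -0.195 without anti-PD-1 replicate 3, and was 0.22 without anti-PD-1 replicate 2. Of 11 genes of lymph node stroma and high endothelial venules, 5 were tested, with a median of -0.11 (-0.56 without IgG1 replicate 1 and -0.03 without IgG1 replicate 3). This median turned to 0.18 with array weights and 0.14 without both tumors that stood apart. Madcam1 was at 0 in every tumor without doxorubicin.

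Genes that respond to interferon were measured in nearly full lists. Of 29 type I interferon response genes listed, 28 were in the files and all 28 were tested, with a median log2 fold change of 0.16, 21 higher and 7 lower, and 1 higher and 0 lower at an unadjusted p below 0.05. The median was 0.03 without anti-PD-1 replicate 1, 0.24 without anti-PD-1 replicate 2, 0.32 without anti-PD-1 replicate 3 and -0.04 without both tumors that stood apart. The gene was Mx1, at 7.79, 12.0 and 7.59 TPM after IgG1 and 42.3, 12.1 and 18.3 TPM after anti-PD-1. The fold change on the log2 scale was 1.16 (SE 0.43, limma adjusted p = 0.996), and anti-PD-1 replicate 2 lay just above the highest IgG1 tumor. For Mx1 it was 0.68 without anti-PD-1 replicate 1 and 0.59 without both. Summed TPM of the list was 1577, 1609 and 1693 after IgG1 and 2374, 1558 and 1546 after anti-PD-1, so that anti-PD-1 replicate 1, which stood apart over all genes, was the 1 tumor above the IgG1 range. Of 24 interferon-gamma response genes listed, the 23 in the files were tested and had a median of 0.10, with 14 higher, 9 lower and 0 at an unadjusted p below 0.05. This median was -0.11 without anti-PD-1 replicate 1, 0.23 without anti-PD-1 replicate 2, 0.04 without IgG1 replicate 1, -0.155 without both and -0.05 with array weights. The 19 genes of MHC class I and the immunoproteasome had a median of 0.02, with 11 higher and 8 lower, which took the other sign in 5 of 16 settings and was -0.07 without anti-PD-1 replicate 1 and 0.11 without anti-PD-1 replicate 3. Of 10 MHC class II genes, 9 were tested, with a median of -0.32 (-0.07 without IgG1 replicate 1 and -0.17 without anti-PD-1 replicate 2), 1 higher and 8 lower, and none of the genes in these 3 lists reached an unadjusted p below 0.05.

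The medians of macrophage genes and chemokines were below 0, by amounts that depended on single tumors. Of 21 macrophage genes, 19 were tested, with a median of -0.25, 4 higher, 15 lower, and 0 higher and 2 lower at an unadjusted p below 0.05. The median was -0.14 without anti-PD-1 replicate 1, -0.16 without anti-PD-1 replicate 3 and -0.10 without both tumors that stood apart. Cd14, a coreceptor for bacterial lipopolysaccharide, had 157, 88.8 and 111 TPM after IgG1 and 76.4, 62.8 and 55.0 TPM after anti-PD-1, with a log2 fold change of -0.84 (SE 0.27, limma adjusted p = 0.996). Cd68, a lysosomal protein of macrophages, had 14.4, 13.5 and 12.2 TPM after IgG1 and 4.07, 8.35 and 9.14 TPM after anti-PD-1, with a log2 fold change of -0.87 (SE 0.35, limma adjusted p = 0.996), or -0.56 without anti-PD-1 replicate 1. Both were lower in all 3 anti-PD-1 tumors, whereas Adgre1, the F4/80 antigen of macrophages, had overlapping groups, at 22.2, 19.4 and 22.8 TPM after IgG1 and 20.1, 24.4 and 20.4 TPM after anti-PD-1.

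Of 24 chemokine genes, 22 were tested, with a median of -0.30, 7 higher, 15 lower, and 0 higher and 3 lower at an unadjusted p below 0.05. Without anti-PD-1 replicate 1 the median was -0.04, without IgG1 replicate 1 it was -0.05, and without IgG1 replicate 2 it was -0.52. The eosinophil attractant Ccl11 had 10.2, 9.63 and 9.97 TPM after IgG1 and 4.67, 6.58 and 3.77 TPM after anti-PD-1, with a log2 fold change of -0.89 (SE 0.33, limma adjusted p = 0.996). The epithelial chemokines Cxcl17 and Cxcl15 had log2 fold changes of -1.13 (SE 0.44) and -1.81 (SE 0.59), and each was lower in all 3 anti-PD-1 tumors, with -0.75 for Cxcl17 without IgG1 replicate 1. Cxcl17 had 18.6, 8.49 and 7.32 TPM after IgG1 and 4.57, 2.64 and 6.32 TPM after anti-PD-1. Cxcl15 had 2.49, 6.15 and 14.2 TPM after IgG1 and 2.29, 0.29 and 1.06 TPM after anti-PD-1, a narrow gap between the first replicates. At a pseudocount of 5, Cxcl17 had -0.75, Cxcl15 -0.93 and Ccl11 -0.585. Of 12 dendritic cell genes, 9 were tested, 1 of them only through the IgG1 tumors, with a median of -0.40. It was 0.31 with a filter of 5 TPM, -0.145 without IgG1 replicate 1, -0.61 without IgG1 replicate 2 and -0.14 without anti-PD-1 replicate 3. The 9 Fc receptor genes, all tested, had a median of 0.00, with 5 higher and 4 lower (-0.13 without IgG1 replicate 2 and 0.175 without IgG1 replicate 3). For the IL-12 family, 7 of 13 genes were tested, with a median of 0.04 (-0.15 without anti-PD-1 replicate 3 and 0.29 without anti-PD-1 replicate 1). Of 17 neutrophil genes, 5 were tested, with a median of 0.22 (-0.02 without IgG1 replicate 1 or 2 and 0.45 without anti-PD-1 replicate 2), and Ly6g was at 0 in every tumor. None of the genes in these 4 lists reached an unadjusted p below 0.05.

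**Figure D2:**
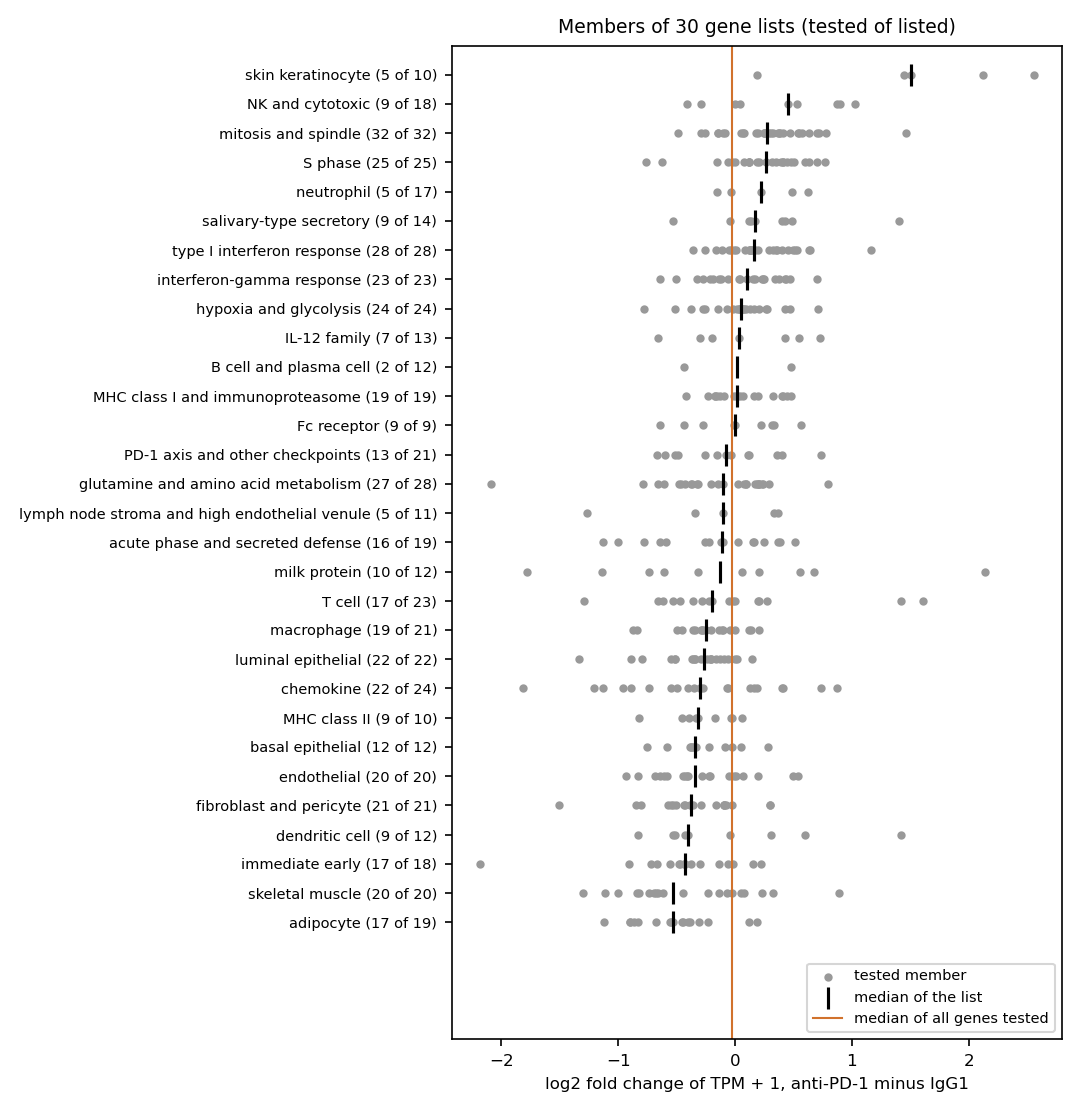
The log2 fold change of each tested gene of the 30 lists (grey points), with the median of each list (black bars) and of all 13692 tested genes (vertical line at -0.03); the number tested of those listed stands beside each name. List medians run from -0.53 for adipocyte genes to 1.51 for skin keratinocyte genes, 2 of whose 5 tested members passed the limit only through the anti-PD-1 tumors.

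The 10 leading genes in each direction were those with the largest log2 fold change among tested genes whose groups did not overlap, with an unadjusted p below 0.05 and a mean of at least 5 TPM in the higher group. Those higher were Gm14408, Timm8a1, Phpt1, Krt71, Dynlt1b, Tmsb15b2, Krt77, Clic3, Oxld1 and Flg2. Those lower were Hbb-bt, Pagr1a, Gm21972, Cyp3a57, Hhipl2, Olfm4, Pakap, Gm26558, Gm9797 and Fosb. The direction of these genes is fixed by the way they were chosen. Among those higher, 5 reached 1 TPM only in anti-PD-1 tumors (Gm14408, Phpt1, Krt71, Krt77 and Flg2), and among those lower, 3 did so only in IgG1 tumors (Hbb-bt, Pagr1a and Olfm4), as did 23 and 31 of all tested genes. For such genes the filter itself selects a difference, so their p-values give no support for one. Fold changes of genes at 0 or a few TPM in some tumors depend on the pseudocount of 1: for Timm8a1 the log2 fold change of 3.39 was 5.58 at a pseudocount of 0.1 and 1.94 at 5.

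**Figure D3:**
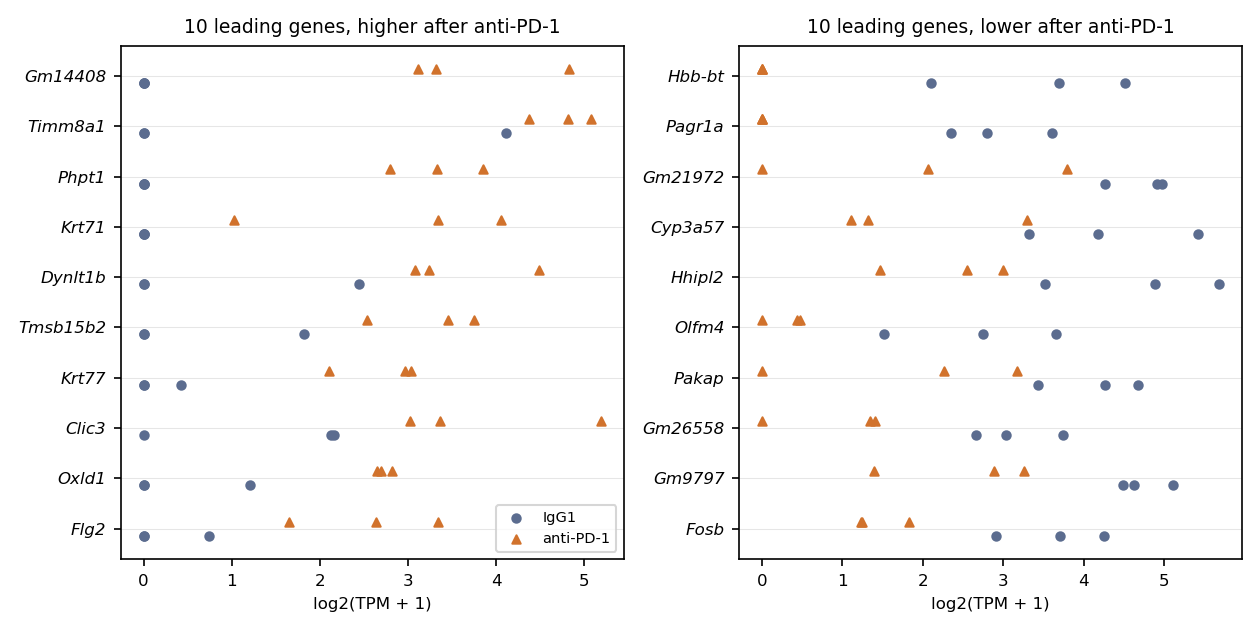
The 10 leading genes higher (left) and lower (right) after anti-PD-1 in each of the 6 tumors, as log2(TPM + 1), with circles for IgG1 and triangles for anti-PD-1. Gm14408, Phpt1 and Krt71 are at 0 in all 3 IgG1 tumors, and Hbb-bt and Pagr1a in all 3 anti-PD-1 tumors.

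Phpt1 and Gm14408 shared the smallest adjusted p, 0.159. Phpt1 (ENSMUSG00000036504, chr2:25573430-25575224, reverse strand), a phosphatase of phosphohistidine, stood at 0 in each of the 3 IgG1 tumors, as listed, and had 13.5, 9.06 and 5.97 TPM after anti-PD-1. Gm14408, a predicted gene, was likewise listed at 0 for all 3 IgG1 tumors, with 27.3, 7.64 and 8.94 TPM after anti-PD-1. In the other direction, Pagr1a had 4.12, 11.1 and 5.96 TPM after IgG1 and was listed at 0 for all 3 anti-PD-1 tumors, with a limma adjusted p of 0.411. The globin gene Hbb-bt had 21.9, 3.28 and 11.9 TPM after IgG1 and was listed at 0 for all 3 anti-PD-1 tumors, with a limma adjusted p of 0.443. Some settings called these 4 genes: without the mean-variance trend Phpt1 had an adjusted p of 0.0717, and with array weights Phpt1 and Gm14408 had 0.0694 and Pagr1a 0.0743. Without IgG1 replicate 2, Hbb-bt had 0.0890. All 4 passed the filter through 1 group alone, so these p-values give no support for a difference.

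Many of the leading genes share sequence with other genes. Reads were 75 bases long, so for each gene the share of its 75-base windows that also occur in transcripts of other genes was computed. Of the 20 leading genes, 10 (50%) had at least 30% of their windows in other genes, 5 in each direction, against 579 of 13677 tested genes with transcripts (4.23%). The share was 99.8% for Gm9797, whose windows are found in Timm8a1, 88.6% for Pagr1a, 82.6% for Dynlt1b, 82.5% for Gm14408 and 56.6% for Hbb-bt, with its neighbor Hbb-bs. Oxld1, Krt77, Clic3, Fosb and Col1a1 shared less than that limit. How reads were divided between such genes was not tested, since the reads are not in the files.

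Sums with near copies differed from the single genes. Timm8a1, a protein of import into mitochondria, had 0, 16.3 and 0 TPM after IgG1 and 19.7, 32.8 and 27.3 TPM after anti-PD-1, with a log2 fold change of 3.39 (SE 0.93, limma adjusted p = 0.936, or 0.00958 without IgG1 replicate 2). Leaving out replicate 2, the only IgG1 tumor above 0, fixes the difference, so the second value gives no support for one. The near copy of Timm8a1, Gm9797, had 33.5, 21.4 and 23.6 TPM after IgG1 and 8.60, 6.36 and 1.63 TPM after anti-PD-1, with a log2 fold change of -2.23 (SE 0.47, limma adjusted p = 0.577). The sum of Timm8a1 and Gm9797 was 33.5, 37.7 and 23.6 TPM after IgG1 and 28.3, 39.2 and 28.9 TPM after anti-PD-1, with a log2 difference of 0.03 with overlapping groups. Pagr1a with its copies Pagr1b and Gm42742 summed to 17, 32.7 and 13.15 TPM after IgG1 and 44.3, 19.5 and 21.9 TPM after anti-PD-1, with a log2 difference of 0.44, opposite in sign to that of Pagr1a, and overlapping groups. Hbb-bt and Hbb-bs together had 95.9, 29.1 and 43.2 TPM after IgG1 and 17.4, 10.9 and 30.6 TPM after anti-PD-1, with a log2 difference of -1.41 with overlapping groups. Hbb-bs was added after the values were seen.

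Other sums kept their groups apart. The 4 Dynlt1 genes, which encode light chains of the motor dynein, summed to 28.3, 48.0 and 48.9 TPM after IgG1 and 65.2, 56.3 and 67.2 TPM after anti-PD-1, with a log2 difference of 0.62. The 4 Tmsb15 genes, which encode actin-binding thymosins, summed to 17.5, 7.83 and 15.8 TPM after IgG1 and 29.7, 22.7 and 17.7 TPM after anti-PD-1, a difference of 0.77. Pakap with Akap2 and Palm2, whose transcripts overlap it, summed to 89.5, 72.5 and 75.6 TPM after IgG1 and 64.3, 34.3 and 62.7 TPM after anti-PD-1, a difference of -0.60. For Gm21972 with Armc9 and Psmd1 the difference was 0.01, and for Phpt1 with Mamdc4 it was 0.69, both with overlapping groups.

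**Figure D4:**
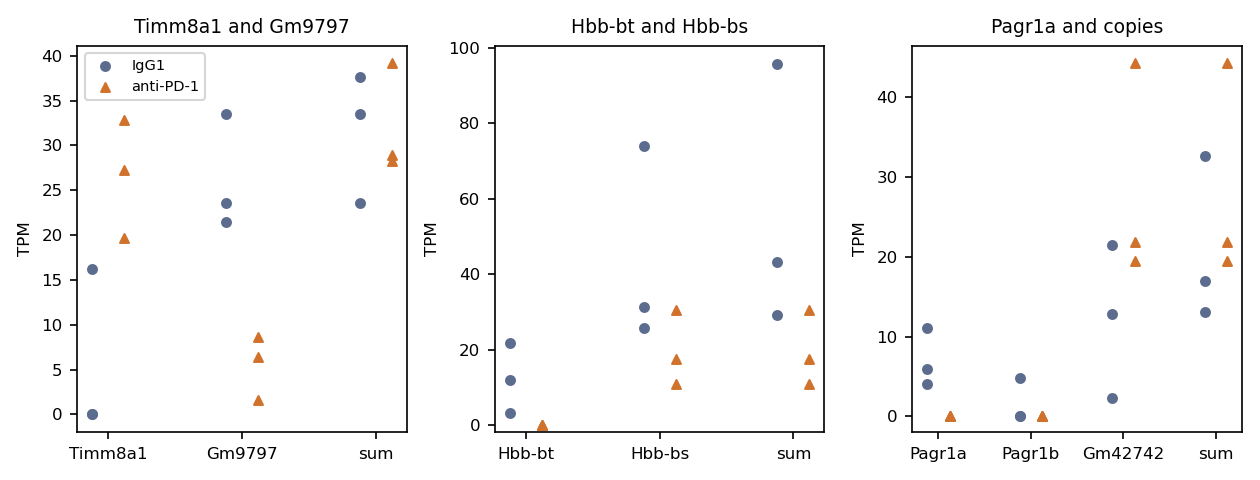
TPM of Timm8a1, Hbb-bt and Pagr1a, of the genes that share their sequence, and of the sums, in the 3 IgG1 tumors (circles) and the 3 anti-PD-1 tumors (triangles). The sum of Timm8a1 and Gm9797 lies between 23.6 and 39.2 TPM in all 6 tumors, and in all 3 sums the groups overlap.

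The 4 genes that the study listed for this comparison, Glul, Hhipl2, Gm21887 and Spag5, were picked on these same tumors, so their values are not independent evidence. Glul (ENSMUSG00000026473, chr1:153899944-153909723, forward strand), the enzyme that makes glutamine from glutamate and ammonia, had 138, 96.1 and 276 TPM after IgG1 and 41.4, 29.2 and 36.8 TPM after anti-PD-1. The means were 170.2 ± 94.3 and 35.8 ± 6.17 TPM (SD, n = 3 tumors each). This gave a log2 fold change of -2.09 (SE 0.36, limma adjusted p = 0.443), and every anti-PD-1 tumor was below every IgG1 tumor. Hhipl2 (ENSMUSG00000053461, chr1:183418215-183436808, forward strand) had 28.6, 10.4 and 50.4 TPM after IgG1 and 7.01, 4.86 and 1.77 TPM after anti-PD-1. Its log2 fold change was -2.35 (SE 0.57, limma adjusted p = 0.761), again without overlap.

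Gm21887 (chrX:170009659-170019281, forward strand), a predicted gene, had 1075, 518 and 1235 TPM after IgG1 and 366, 291 and 323 TPM after anti-PD-1, with a log2 fold change of -1.44 (SE 0.33, limma adjusted p = 0.734) and no overlap. Of its windows, 57.1% occur in other genes, and 35% of the windows of Erdr1 occur in Gm21887. The sum of Gm21887 and Erdr1 was 1590, 616 and 1563 TPM after IgG1 and 697, 439.9 and 445 TPM after anti-PD-1, with a log2 difference of -1.16, and here the groups overlapped. Spag5 (chr11:78301529-78322457, forward strand), the spindle protein astrin, had 36.6, 32 and 47.9 TPM after IgG1 and 69.6, 242 and 73.6 TPM after anti-PD-1. All 3 anti-PD-1 tumors were above the IgG1 tumors, replicate 2 by the widest margin, and the log2 fold change was 1.47 (SE 0.43, limma adjusted p = 0.996), or 0.89 without anti-PD-1 replicate 2.

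Glul had the largest difference among the tested genes of glutamine and amino acid metabolism. Of 28 listed, 27 were tested, with a median log2 fold change of -0.10 that turned to 0.03 at a pseudocount of 0.1, 13 higher and 14 lower, and 0 higher and 3 lower at an unadjusted p below 0.05. Without IgG1 replicate 3 the median was 0.01, and without anti-PD-1 replicates 1 and 2 it was 0.04 and -0.175. Glul, which the study picked on these same tumors, is 1 of the 3 lower and is part of the median. The other 2 were the glutamine transporter Slc1a5 and the purine synthesis enzyme Pfas. Pfas had 39.7, 33.6 and 33.5 TPM after IgG1 and 18.5, 24.8 and 26.4 TPM after anti-PD-1, with a log2 fold change of -0.61 (SE 0.26, limma adjusted p = 0.996) and no overlap. For Pfas it was -0.38 without both tumors that stood apart.

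Spag5 belongs to a list of mitosis and spindle genes, which leaned upward, by an amount that depended on single tumors. All 32 were tested, with a median log2 fold change of 0.28 beside -0.03 for all genes, 25 higher and 7 lower, and 3 higher and 0 lower at an unadjusted p below 0.05. Spag5, which the study picked on these same tumors, is 1 of these 3 and is part of the median. The median was 0.06 without IgG1 replicate 1, 0.12 without anti-PD-1 replicate 2 and 0.42 without anti-PD-1 replicate 3. Nusap1, which bundles spindle microtubules, had 77.2, 65.7 and 64.9 TPM after IgG1 and 118, 119.8 and 88.7 TPM after anti-PD-1. The fold change on the log2 scale was 0.64 (SE 0.23, limma adjusted p = 0.996), without overlap. The kinetochore gene Nuf2 had 16.2, 14.9 and 25.7 TPM after IgG1 and 24.8, 31.3 and 36.8 TPM after anti-PD-1, which overlapped. All 25 S phase genes were tested, with a median of 0.27, 20 higher and 5 lower, and 1 higher and 0 lower at an unadjusted p below 0.05, and the median was 0.44 without anti-PD-1 replicate 1. That gene was the primase Prim1, at 13.7, 14.1 and 12.7 TPM after IgG1 and 23.9, 18.8 and 20.3 TPM after anti-PD-1. Summed TPM of the mitosis list was 763, 1074 and 1036 after IgG1 and 1178, 1541 and 1039 after anti-PD-1, lowest in IgG1 replicate 1, with Top2a as its most abundant gene.

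Immediate early genes, which are transcribed within minutes of a stimulus and encode factors such as the AP-1 proteins, leaned downward. Of 18 listed, 17 were tested, with a median log2 fold change of -0.43, 2 higher and 15 lower, and 0 higher and 3 lower at an unadjusted p below 0.05. The groups did not overlap for 5 of the 17, all lower. Summed TPM was 561, 594 and 626 after IgG1 and 401, 404 and 458 after anti-PD-1, so every anti-PD-1 tumor was below every IgG1 tumor, and the most abundant gene, Fos, held 18.8%.

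Fosb (ENSMUSG00000003545, chr7:19302696-19310051, reverse strand) had 18.1, 12.1 and 6.50 TPM after IgG1 and 1.35, 1.37 and 2.56 TPM after anti-PD-1, means of 12.2 ± 5.78 and 1.76 ± 0.693 TPM (SD, n = 3 tumors each). This gave a log2 fold change of -2.19 (SE 0.44, limma adjusted p = 0.564), or -1.30 at a pseudocount of 5, and the groups did not overlap. Fos had 73.9, 159.6 and 145 TPM after IgG1 and 56.3, 55.1 and 81.6 TPM after anti-PD-1, with a log2 fold change of -0.91 (SE 0.32, limma adjusted p = 0.996), where IgG1 replicate 1 lay below anti-PD-1 replicate 3. Cyr61, a secreted matrix protein, had 74.3, 48.0 and 56.9 TPM after IgG1 and 42.7, 27 and 38.2 TPM after anti-PD-1, with a log2 fold change of -0.72 (SE 0.27, limma adjusted p = 0.996) and no overlap. Jun, the partner of Fos in AP-1, had 73.5, 56.8 and 63 TPM after IgG1 and 50.9, 36.8 and 50.7 TPM after anti-PD-1, also without overlap.

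The promoters of Fos, the most abundant gene of the list, and of Fosb, its leading gene, are shown. Each runs from 250 bases before to 50 bases after the start of transcription, from RefSeq on GRCm38.p6, 5′ to 3′ on the strand of the gene. The Fos promoter is at chr12:85473640-85473939 on the forward strand and that of Fosb at chr7:19309996-19310295 on the reverse strand. Capitals mark TGACG, the first letters of the cAMP response element, searched on both strands.
Fos: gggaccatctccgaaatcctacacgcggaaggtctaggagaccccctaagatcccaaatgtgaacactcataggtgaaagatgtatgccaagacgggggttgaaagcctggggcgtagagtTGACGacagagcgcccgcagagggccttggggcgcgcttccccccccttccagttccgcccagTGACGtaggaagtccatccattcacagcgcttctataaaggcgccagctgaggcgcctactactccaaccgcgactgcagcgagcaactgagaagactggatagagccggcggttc
Fosb: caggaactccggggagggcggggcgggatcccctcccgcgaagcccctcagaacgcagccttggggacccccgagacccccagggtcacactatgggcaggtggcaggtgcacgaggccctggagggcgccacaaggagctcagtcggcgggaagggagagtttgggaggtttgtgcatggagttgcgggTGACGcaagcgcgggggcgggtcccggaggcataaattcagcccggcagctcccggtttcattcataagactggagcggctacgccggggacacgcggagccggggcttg
The motif occurs at 2 places in the Fos window and at 1 in the Fosb window. The window of Jun, whose groups did not overlap, holds 0. Matched by symbol, 14 of the 18 listed genes had a promoter, and 9 of these (64.3%) held the motif, against 6837 of 32851 mouse promoters of the same length (20.8%). Each listed gene was counted by the first promoter under its symbol, while the background counts every promoter, so the 2 shares differ in unit. A match is a description of the letters and not a site of binding.

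Genes of fibroblasts and pericytes also leaned downward, led by a collagen gene. All 21 were tested, with a median log2 fold change of -0.37, 2 higher and 19 lower, 0 higher and 2 lower at an unadjusted p below 0.05, and 6 lower without overlap. The median was -0.23 without IgG1 replicate 3. Col1a1 (ENSMUSG00000001506, chr11:94936224-94953042, forward strand), a chain of type I collagen, had 432, 527 and 745 TPM after IgG1 and 238, 234 and 132 TPM after anti-PD-1, means of 568 ± 160.5 and 201 ± 59.8 TPM (SD, n = 3 tumors each). Its log2 fold change was -1.50 (SE 0.30, limma adjusted p = 0.564), and every anti-PD-1 tumor was below every IgG1 tumor. The partner chain Col1a2 was closer between groups, at 188, 168 and 299.7 TPM after IgG1 and 222, 141 and 138 TPM after anti-PD-1, which overlapped. Col3a1 had 405, 303 and 492 TPM after IgG1 and 290.0, 291 and 235 TPM after anti-PD-1, with a log2 fold change of -0.54 (SE 0.25, limma adjusted p = 0.996). Dpt, a matrix protein of fibroblasts, had a log2 fold change of -0.85 (SE 0.36), and the fibroblast receptor Pdgfra, at 34.5, 31 and 66.9 TPM after IgG1 and 40.6, 39.3 and 36.6 TPM after anti-PD-1, had overlapping groups.

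All 20 endothelial genes were tested, with a median of -0.34, 5 higher and 15 lower, and 0 higher and 2 lower at an unadjusted p below 0.05. Without IgG1 replicate 3 the median was -0.16, and without anti-PD-1 replicate 3 it was -0.18. The transcription factor Erg had 6.68, 4.55 and 5.72 TPM after IgG1 and 2.62, 3.43 and 2.18 TPM after anti-PD-1, with a log2 fold change of -0.83 (SE 0.37, limma adjusted p = 0.996), or -0.46 at a pseudocount of 5, and no overlap. The tight junction gene Cldn5 was also lower in all 3 anti-PD-1 tumors, and Cdh5, the cadherin of endothelial junctions, had 26.9, 21.8 and 23.1 TPM after IgG1 and 31.9, 18.2 and 20.9 TPM after anti-PD-1, which overlapped.

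Genes of muscle and fat varied widely between single tumors. All 20 skeletal muscle genes were tested, with a median of -0.53, 5 higher, 15 lower and 0 at an unadjusted p below 0.05. This turned to 0.22 without IgG1 replicate 3 and 0.27 without anti-PD-1 replicate 3, and was -1.56 without anti-PD-1 replicate 1 and -1.05 without IgG1 replicate 2. Summed TPM of the list was 289.8, 96.1 and 1052 after IgG1 and 1141, 120.3 and 61.9 after anti-PD-1, high in IgG1 replicate 3 and anti-PD-1 replicate 1, with Myl1 as its most abundant gene. Of 19 adipocyte genes, 17 were tested, with a median of -0.53, 2 higher, 15 lower and 0 at an unadjusted p below 0.05. This was -0.24 without IgG1 replicate 2, -0.30 without IgG1 replicate 3 and -1.30 without IgG1 replicate 1. Their summed TPM was 245, 765 and 809 after IgG1 and 389.8, 312 and 415 after anti-PD-1, high in IgG1 replicates 2 and 3, and the most abundant gene was Car3. The part of muscle and fat in the values of other genes was not tested.

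Most luminal epithelial genes were lower, while the median of basal genes changed sign between settings. All 22 luminal genes were tested, with a median of -0.27 (-0.45 without both tumors that stood apart), 2 higher and 20 lower, and 0 higher and 3 lower at an unadjusted p below 0.05. The progesterone receptor Pgr had 19.6, 21.9 and 51.0 TPM after IgG1 and 16.1, 6.44 and 11 TPM after anti-PD-1, with a log2 fold change of -1.33 (SE 0.43, limma adjusted p = 0.996) and no overlap. The keratin Krt19 had 847, 347 and 601 TPM after IgG1 and 406, 255 and 265 TPM after anti-PD-1, with a log2 fold change of -0.89 (SE 0.34, limma adjusted p = 0.996), and the groups overlapped. The 12 basal genes, all tested, had a median of -0.34, with 2 higher, 10 lower and 0 at an unadjusted p below 0.05, and Igfbp5 held 90.2% of their summed TPM. This median was -0.02 without anti-PD-1 replicate 1, -0.65 without IgG1 replicate 2, 0.245 without both tumors that stood apart and 0.10 with array weights.

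Milk protein genes went both ways. Of 12 listed, 10 were tested, with a median of -0.13, 5 higher and 5 lower, and 1 at an unadjusted p below 0.05 in each direction. The median was 0.21 with a filter of 5 TPM, -0.41 without IgG1 replicate 1 and -0.04 without anti-PD-1 replicate 1. Mfge8, a protein of milk fat globules that binds dying cells, had 505, 416 and 453 TPM after IgG1 and 263, 280.3 and 278 TPM after anti-PD-1. The fold change on the log2 scale was -0.74 (SE 0.21, limma adjusted p = 0.996), without overlap. Wap, the whey acidic protein, had 2.68, 6.10 and 0 TPM after IgG1 and 10.5, 18.9 and 8.79 TPM after anti-PD-1, with a log2 fold change of 2.14 (SE 0.65, limma adjusted p = 0.996), also without overlap. For Wap it was 1.36 without IgG1 replicate 3, 3.34 at a pseudocount of 0.1 and 1.20 at 5. The casein Csn3, the most abundant of the list, had 6987, 4472 and 7858 TPM after IgG1 and 5979, 9221 and 6830 TPM after anti-PD-1.

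Some genes of skin keratinocytes were low but measurable after anti-PD-1. Of 10 listed, 5 were tested, 2 of them (Krt77 and Dsg1a) only through the anti-PD-1 tumors, so counts over the 5 give no support for a direction. Their median of 1.51 was 0.19 with a filter of 5 TPM, 3.50 at a pseudocount of 0.1 and 0.51 at 5. Krt77, a keratin of the epidermis, had 0, 0.34 and 0 TPM after IgG1 and 3.30, 7.18 and 6.84 TPM after anti-PD-1, with a log2 fold change of 2.56 (SE 0.46, limma adjusted p = 0.443; 5.08 at a pseudocount of 0.1 and 1.06 at 5) and no overlap. Krt10, a keratin of differentiated epidermis, had 0, 2.01 and 1.00 TPM after IgG1 and 3.88, 9.59 and 8.60 TPM after anti-PD-1, with a log2 fold change of 2.12 (SE 0.52, limma adjusted p = 0.761; 3.50 and 1.02 at these pseudocounts) and no overlap. Flg2, an epidermal barrier protein outside the list that also passed the filter only through anti-PD-1 tumors, had 0, 0.67 and 0 TPM after IgG1 and 2.15, 9.14 and 5.21 TPM after anti-PD-1. This gave a log2 fold change of 2.30 (SE 0.54, limma adjusted p = 0.739), without overlap, which was 4.60 and 0.96 at these pseudocounts. The p-values of Krt77 and Flg2 give no support for a difference, since the filter selects it. Krt71, a keratin of the hair follicle, stood at 0 in each of the 3 IgG1 tumors and had 15.6, 9.15 and 1.03 TPM after anti-PD-1.

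Summed TPM of the skin list was 10.6, 17.8 and 26.4 after IgG1 and 34.2, 46.4 and 47.9 after anti-PD-1, of which Sbsn held 56.2%. Sbsn itself had overlapping groups, at 9.44, 15.1 and 24.8 TPM after IgG1 and 23.4, 14.1 and 16.3 TPM after anti-PD-1. The keratin Krt1, below the limit of the test and named after its values were seen, had 0, 0.41 and 0.42 TPM after IgG1 and 0.66, 2.29 and 6.41 TPM after anti-PD-1. The barrier gene Lor was at 0 in all 3 IgG1 tumors and had 0, 0.71 and 0.32 TPM after anti-PD-1. The part of skin in the values of the leading keratins was not tested.

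The other 3 lists were those of acute phase, hypoxia and salivary-type genes. Of 19 acute phase and secreted defense genes, 16 were tested, with a median of -0.11 (-0.28 without IgG1 replicate 2), 7 higher and 9 lower, and 0 higher and 2 lower at an unadjusted p below 0.05. These were haptoglobin (Hp) and lactoferrin (Ltf), and Ltf had 1433, 897 and 1758 TPM after IgG1 and 899, 771 and 647 TPM after anti-PD-1, where the groups overlapped by 1 pair of tumors. All 24 hypoxia and glycolysis genes were tested, with a median of 0.05 (-0.08 without anti-PD-1 replicate 3 and 0.12 without anti-PD-1 replicate 1), 16 higher, 8 lower and 0 at an unadjusted p below 0.05. Of 16 salivary-type secretory genes listed, 14 were in the files and 9 were tested, with a median of 0.18, 7 higher, 2 lower and 0 at an unadjusted p below 0.05. This median was -0.18 without IgG1 replicate 1, -0.003 without anti-PD-1 replicate 1, -0.31 without both and 0.545 without IgG1 replicate 3.

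The leading genes that share little sequence with others include some with no list. Oxld1 had 0, 1.31 and 0 TPM after IgG1 and 5.25, 6.06 and 5.45 TPM after anti-PD-1, with a log2 fold change of 2.31 (SE 0.47, limma adjusted p = 0.564), which was 4.55 at a pseudocount of 0.1 and 0.97 at 5. Clic3, an intracellular chloride channel protein, had 0, 3.37 and 3.48 TPM after IgG1 and 9.29, 7.14 and 35.5 TPM after anti-PD-1, with a log2 fold change of 2.43 (SE 0.70, limma adjusted p = 0.996), or 1.435 at a pseudocount of 5. Both were higher in all 3 anti-PD-1 tumors, and replicate 3 was far above the others for Clic3. Olfm4, a secreted glycoprotein, had 5.72, 1.86 and 11.6 TPM after IgG1 and 0, 0.39 and 0.35 TPM after anti-PD-1, with a log2 fold change of -2.34 (SE 0.57, limma adjusted p = 0.761), or -4.19 and -1.03 at these pseudocounts. Cyp3a57, a cytochrome P450, had 9.02, 17.1 and 41.9 TPM after IgG1 and 8.85, 1.49 and 1.15 TPM after anti-PD-1, so that its groups were separated by a narrow gap between the first replicates.

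The same antibodies given with doxorubicin were compared to ask whether these differences depended on chemotherapy. In a fit of all 12 tumors, limma tested the difference between the 2 antibody effects in 14735 genes and called 1 (0.00679%), with 694 at an unadjusted p below 0.05. The called gene, Bpifa2, reached 1 TPM only in DOX/IgG1 tumors, so the filter itself selects a difference and the call gives no support for one. Of the 10 leading genes that were higher after anti-PD-1 alone, 4 were higher and 6 lower with doxorubicin, with a median log2 fold change of -0.10, and the smallest adjusted p for a difference in effect was 0.993, with 7 of the 10 at an unadjusted p below 0.05. Of the 10 that were lower, 2 were higher and 7 lower with doxorubicin and Pagr1a was at 0 in every tumor, with a median of -0.54 and a smallest adjusted p of 0.938, and 4 of the 10 had an unadjusted p below 0.05. Choosing these genes by their difference without doxorubicin favors a difference between the effects. In 0 of the 20 did the DOX/IgG1 and DOX/anti-PD-1 groups separate. The share over all genes is not given for these groups, so this count is a description only. Over all 13692 genes, 34 were higher and 47 lower after anti-PD-1 without overlap in both settings, and 24 and 28 separated in opposite directions.

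For Glul, DOX/IgG1 tumors had 53.6, 330.0 and 333 TPM and DOX/anti-PD-1 tumors 112, 157 and 489 TPM, with a log2 fold change of 0.18 (SE 0.66). The difference between the effects was 2.27 (SE 0.94, limma adjusted p = 0.993). Col1a1 had 149, 339 and 274 TPM after DOX/IgG1 and 219.6, 488 and 525 TPM after DOX/anti-PD-1, with a log2 fold change of 0.68 (SE 0.39), opposite in sign to that without doxorubicin. The difference for Col1a1 was 2.18 (SE 0.56, limma adjusted p = 0.993). Fosb kept the same sign, at 27.2, 17.6 and 6.74 TPM after DOX/IgG1 and 3.56, 2.18 and 8.25 TPM after DOX/anti-PD-1, with a log2 fold change of -1.64 (SE 0.55), here with overlapping groups. Wap was again higher after anti-PD-1, at 0, 1.79 and 0 TPM after DOX/IgG1 and 8, 2.64 and 3.92 TPM after DOX/anti-PD-1, without overlap. Doses and tumor sizes at the start also differed between these settings, so that doxorubicin cannot be told apart from them.

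**Figure D5:**
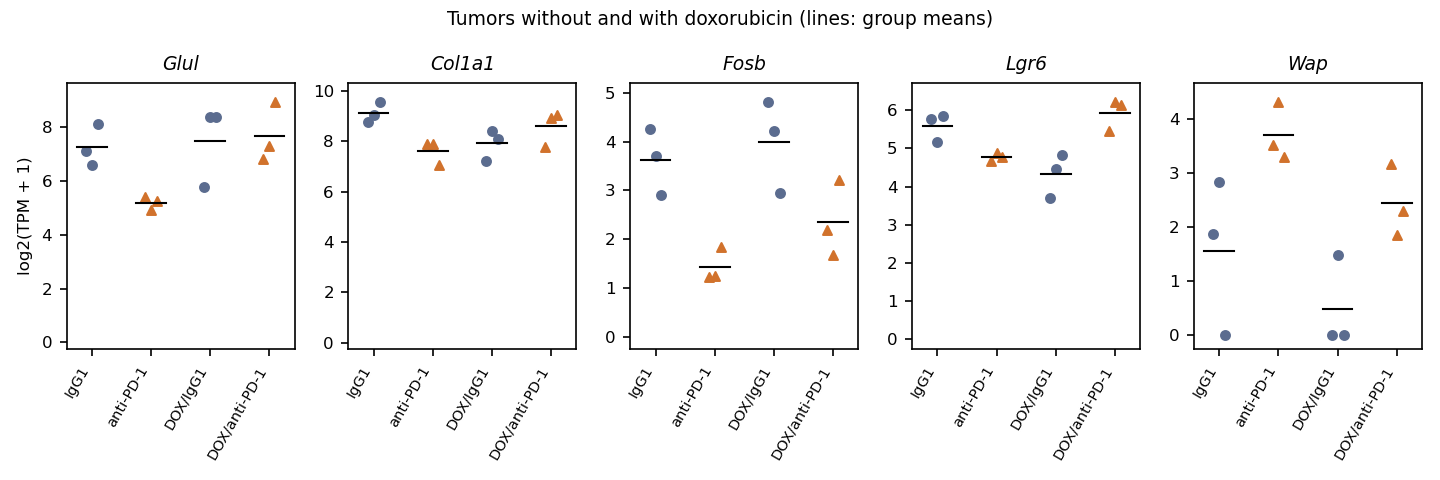
Glul, Col1a1, Fosb, Lgr6 and Wap in all 12 tumors as log2(TPM + 1), with circles for IgG1 groups, triangles for anti-PD-1 groups and lines at the group means. Glul and Col1a1 are lower after anti-PD-1 in the tumors without doxorubicin, while the groups with doxorubicin overlap; Lgr6 separates in opposite directions in the 2 settings.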

How the data were processed

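Whole tumors of the IgG1 and anti-PD-1 groups were compared, and the groups were taken from the sample labels. Reads had been trimmed (skewer), aligned (STAR, mm10) and quantified per gene (RSEM) by the authors, who deposited log2(TPM + 1) with decimal commas. The log2 step was reversed for values in TPM. Genes at or above 1 TPM in at least 3 of the 6 tumors were tested on log2(TPM + 1), a pseudocount of 1, with limma 3.58.1 in R 4.3.3 (lmFit, eBayes with a mean-variance trend, Benjamini-Hochberg adjustment, two-sided). The limits were an adjusted p of 0.1 and an absolute log2 fold change of 1. The fit was tested on simulated data. The difference between the antibody effects with and without doxorubicin was an interaction term over 12 tumors.

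Named genes were Pdcd1 and its ligands, 10 leading genes in each direction (groups without overlap, unadjusted p below 0.05, mean of at least 5 TPM in the higher group), the genes with the smallest adjusted p, the 4 genes of the study, up to 3 of the most abundant members of each list, and tested members without overlap at an unadjusted p below 0.05. Erdr1, Hbb-bs, Lgr6, Bpifa2, Krt1 and the cell type markers, together with other members named inside a list or near copies, were chosen after their values were seen. The members and the 30 lists were chosen with earlier results of these data known. Coordinates and transcripts are from GENCODE vM21, matched for 21860 of 21960 genes. A window of 75 bases was counted as shared when it occurs, in the same 5′ to 3′ orientation, in a transcript of another gene on any chromosome or strand.

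Alternatives were pseudocounts of 0.1 and 5, no filter or 5 TPM, median-of-ratios scaling, no trend, array weights, all 12 tumors in the fit, the replicate number as a block, and leaving out each tumor. Leaving out 2 tumors together was added after seeing the data.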

Additional observations from a re-analysis of the deposited data

Results flagged for a closer look

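Bpifa2, a secreted protein of salivary and airway epithelium, was the 1 gene called for a different anti-PD-1 effect with doxorubicin. It was listed at 0 in all 6 tumors without doxorubicin. It had 14.4, 21.3 and 53.7 TPM in the DOX/IgG1 tumors and stood at 0 in each DOX/anti-PD-1 tumor. The difference between the effects was -4.73 on the log2 scale (SE 0.66, limma adjusted p = 0.0909), a value that depends on the pseudocount because 3 of the 4 groups are at 0. Bpifa2 passed the filter through the DOX/IgG1 tumors alone, so that the filter itself selects a difference and the p-value gives no support for one. Bpifa2 was no longer called at a pseudocount of 0.1, after median-of-ratios scaling, with a filter of 5 TPM or with the replicate block, where the count of called genes was 0. The count was also 0 in 10 of 12 fits that left out 1 tumor.

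Lgr6, a receptor for R-spondins that marks progenitor cells in several epithelia, separated the groups in opposite directions without and with doxorubicin. It had 53.6, 34.7 and 56.2 TPM after IgG1 and 24.6, 28.3 and 26.1 TPM after anti-PD-1, every anti-PD-1 tumor below every IgG1 tumor. It had 11.9, 20.8 and 27.4 TPM after DOX/IgG1 and 43.1, 73.1 and 68.7 TPM after DOX/anti-PD-1, every DOX/anti-PD-1 tumor above every DOX/IgG1 tumor. The difference between the effects was 2.43 (SE 0.45, limma adjusted p = 0.548), which did not pass the test. Both genes were chosen after their values were seen.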

How the results depend on the processing

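The count of 0 called genes became 1 without the mean-variance trend, 3 with array weights, 0 to 4 when 1 tumor was left out and 5 without both tumors that stood apart. In these fits every called gene except Dmbt1 was at 0 in all tumors used from 1 group. The count was 0 with the replicate block, where 209 genes were higher and 355 lower at an unadjusted p below 0.05. The block was an alternative only, since correlations over genes of the deviations from group means, between tumors with the same number, were -0.08, -0.02 and -0.10. Genes higher at an unadjusted p below 0.05 numbered 414 with array weights, 150 to 304 when 1 tumor was left out and 453 without both tumors. Those lower numbered 812 with array weights, 255 with all 12 tumors in the fit, 275 to 676 when 1 tumor was left out and 1128 without both. Genes higher without overlap numbered 763 after median-of-ratios scaling, 887 to 1317 when 1 tumor was left out and 1927 without both, and those lower 1233 to 2493 and 4100. Fewer tumors overlap less often by construction. The called difference with doxorubicin became 0 at a pseudocount of 0.1, after median-of-ratios scaling, with a filter of 5 TPM and with the replicate block, 3 without the trend, and 0 in 10 of 12 fits that left out 1 tumor. Of 45 genes followed, 30 had a value in all 16 settings and 15 in all but the filter of 5 TPM, and 44 kept their direction where they had a value. All 44 had groups without overlap, which fixes the direction in every setting except median-of-ratios scaling. Their number therefore gives no support for a difference. Cd274 turned to -0.065 without IgG1 replicate 3, -0.084 without anti-PD-1 replicate 1 and -0.004 without both, within a range of -0.084 to 0.314 when 1 tumor was left out; the cause was not tested. Of 30 list medians, 14 kept their sign in every setting run, among them those of immediate early genes (-0.56 to -0.33), fibroblast genes (-0.52 to -0.23), mitosis genes (0.06 to 0.42) and S phase genes (0.17 to 0.44). The other 16 took the other sign in some setting. The median SE was 0.34, and the limit on the fold change itself leaves out differences under 1 on the log2 scale. With no limit on the fold change, the count of called genes was also 0. Without read counts the error of low values is unknown.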
